A study of Mus musculus with 12 samples.

Results

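The genes described are 8 immediate early transcription factor genes of the mouse, namely the nuclear receptor genes Nr4a1, Nr4a2 and Nr4a3, the AP-1 genes Fos, Fosb, Jun and Junb, and Egr1. They were chosen by name, as 8 of 21883 protein-coding genes, and every deposited peak that overlapped a gene's body or the 10 kb on either side of it was assigned to that gene. Chromatin immunoprecipitation followed by sequencing (ChIP-seq) had been run on sorted cKit+ cells from the bone marrow of C57BL/6 mice, for the 3 histone marks H3K4me3, H3K4me1 and H3K27ac. One genotype carried Phf6 R274X, a premature stop in the X-linked chromatin reader gene Phf6, as a transgene (Tg, 2 libraries per mark), and the other was wild type (WT, 2 libraries per mark), which gives 12 peak lists. The labels do not name the promoter of the transgene, the age or the sex of the mice, and they do not say whether one animal supplied more than one mark. The p-values below therefore measure the spread between these libraries, which may in part be technical.

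Immediate early genes are transcribed within minutes of a signal without new protein synthesis, because their promoters are kept accessible and bound by factors such as SRF and CREB. The Nr4a genes encode orphan nuclear receptors, Fos and Jun family proteins pair to form the AP-1 complex, and Egr1 is a zinc finger protein that binds GC-rich DNA. In mouse blood formation, Nr4a1 and Nr4a3 restrain myeloid leukaemia, Junb limits myeloid proliferation, and Egr1 helps to hold stem cells quiescent. H3K4me3 marks active or poised promoters, H3K27ac marks active promoters and enhancers, and H3K4me1 marks enhancers and the shoulders of promoters.

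Before the values, 1 conflict in the files has to be stated. In the H3K4me3 lists the peak names carry the opposite genotype to the sample label in all 4 libraries, whereas in H3K27ac and H3K4me1 names and labels match. Over Phf6 itself, H3K4me1 peaks covered 387 and 2587 bp in Tg libraries, against 0 and 318 bp in WT libraries. H3K4me3 peaks over Phf6 covered 2406 and 2493 bp in the libraries labelled Tg, against 4416 and 3650 bp in those labelled WT. The longer coverage thus sat with the Tg label in H3K4me1 and with the WT label in H3K4me3. H3K27ac peaks over Phf6 covered 1988 and 2072 bp in Tg libraries, against 2210 and 2064 bp in WT libraries, with overlap, so the third mark did not separate the genotypes there. H3K4me3 values are given below by label, with no genotype settled. H3K4me3 libraries of replicate 1 had peaks over 4 of 4 genes of the Y chromosome (Ddx3y, Eif2s3y, Kdm5d and Uty) in both labelled genotypes, and those of replicate 2 over 0 of 4. In H3K27ac and H3K4me1 all 8 libraries had peaks over 0 of the 4. Kit, the receptor on which the cells were sorted, had peaks in all 12 libraries. The lists hold no read counts, so sequencing depth is unknown, and a missing peak does not show that a mark was absent.

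The sequences just before the transcription start are shown for the 5 members with at least 2 matches to the motifs searched, since these are the stretches over which the promoter peaks lay. They come from RefSeq on GRCm38.p6, the assembly called mm10, and hold 250 bases each, written 5′ to 3′ on the strand of the gene. Nr4a1 lies at chr15:101266596-101266845 on the plus strand, and Nr4a2 at chr2:57124004-57124253 on the minus strand. Nr4a3 lies at chr4:48045055-48045304 on the plus strand, Fos at chr12:85473640-85473889 on the plus strand, and Fosb at chr7:19310046-19310295 on the minus strand. The whole genes span chr15:101253902-101274795 (Nr4a1), chr2:57106830-57124003 (Nr4a2), chr4:48045078-48086447 (Nr4a3), chr12:85473890-85477274 (Fos) and chr7:19302696-19310118 (Fosb). Of the other members, 2 span chr4:95049036-95052222 (Jun) and chr8:84976909-84978748 (Junb). Capitals mark the short CREB site TGACG and the EGR motif GCGNGGGCG on either strand.
Nr4a1: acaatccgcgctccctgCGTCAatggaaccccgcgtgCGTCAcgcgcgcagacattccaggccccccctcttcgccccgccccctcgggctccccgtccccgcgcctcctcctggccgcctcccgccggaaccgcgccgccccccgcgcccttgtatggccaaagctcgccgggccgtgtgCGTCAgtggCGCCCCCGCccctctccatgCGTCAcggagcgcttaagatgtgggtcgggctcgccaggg
Nr4a2: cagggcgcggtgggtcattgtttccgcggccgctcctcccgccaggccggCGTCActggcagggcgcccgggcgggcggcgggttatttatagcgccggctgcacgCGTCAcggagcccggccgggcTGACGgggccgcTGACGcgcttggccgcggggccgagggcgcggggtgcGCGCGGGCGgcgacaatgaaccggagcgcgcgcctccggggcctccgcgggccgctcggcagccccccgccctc
Nr4a3: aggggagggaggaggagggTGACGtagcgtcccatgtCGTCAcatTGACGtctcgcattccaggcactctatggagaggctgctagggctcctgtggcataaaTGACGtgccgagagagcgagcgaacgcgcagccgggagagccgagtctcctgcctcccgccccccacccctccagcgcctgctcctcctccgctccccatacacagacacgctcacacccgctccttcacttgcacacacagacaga
Fos: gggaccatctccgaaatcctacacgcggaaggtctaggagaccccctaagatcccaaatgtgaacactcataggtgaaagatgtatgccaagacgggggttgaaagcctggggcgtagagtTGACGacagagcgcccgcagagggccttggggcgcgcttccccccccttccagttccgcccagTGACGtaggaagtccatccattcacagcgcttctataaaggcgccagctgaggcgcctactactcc
Fosb: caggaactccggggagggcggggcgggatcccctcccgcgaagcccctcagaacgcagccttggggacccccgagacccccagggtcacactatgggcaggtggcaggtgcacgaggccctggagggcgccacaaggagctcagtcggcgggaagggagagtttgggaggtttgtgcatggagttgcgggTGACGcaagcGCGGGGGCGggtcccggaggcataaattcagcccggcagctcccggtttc
All 3 Nr4a promoters held 4 matches to TGACG, a number reached in 30 of 14730 promoters of the same length (0.204%). The cut at 4 was taken from these members' own counts. Fos held 2 matches, Fosb and Junb held 1 each, and Jun held 0, so that 6 of the 7 members with a promoter in the table held at least 1, against 19.9% of all promoters. The EGR motif was found in Nr4a1, Nr4a2 and Fosb, which are 3 of 7 members, against 5.94% of all promoters. No match to the full site TGACGTCA, to the AP-1 motif TGANTCA, to the Nr4a monomer site AAAGGTCA or to the CArG box bound by SRF was found in these 7 windows, on either strand. Those 4 motifs had matches in 1.98%, 6.27%, 1.16% and 1.43% of all promoters. Matches describe the letters in these windows and do not show binding. Bases farther upstream and the promoter of Egr1 were not searched. TGACG and the EGR motif each contain a CpG, and the shares of all promoters above were not matched for CpG content. CpG dinucleotides numbered 44 in the Nr4a2 promoter and 34 in that of Nr4a1, against a median of 9 over all promoters. In the other 5 they numbered between 15 (Fos and Jun) and 20 (Junb).

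At the transcription start, the 8 genes had the marks of active promoters in nearly every library. H3K4me3 peaks lay over the start in 32 of 32 combinations of gene and library, with widths between 1859 bp and 6950 bp. The comparison set was 14731 genes, namely those with a single promoter in the table, and Egr1. Of these, 53.3% had such a peak in all 4 libraries. The member peaks were wide for their lists, at the 78.4th percentile or above in every library. That rank is among all peaks of a list, and widths were not compared with those of other peaks over gene starts. Junb had H3K4me3 start peaks of 6525 and 6372 bp in the libraries labelled Tg, against 6950 and 5243 bp in those labelled WT. Nr4a3 had 5244 and 5904 bp in the libraries labelled Tg, against 5600 and 6275 bp in those labelled WT, and Fos had 5070 and 5338 bp against 5137 and 5059 bp. Nr4a2, whose start lies within the span of the gene model LOC105244150, had the narrowest. They were 1859 and 2021 bp in the libraries labelled Tg, against 2075 and 1990 bp in those labelled WT.

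H3K27ac peaks lay over the start in 14 of 16 combinations in Tg libraries and in 16 of 16 in WT libraries. Of the same 14731 genes, 32.8% had one in all 4 libraries. Both missing cases, Nr4a1 and Egr1, were in Tg replicate 1. At Nr4a1 a peak over the start was 1511 bp wide in Tg replicate 2, against 1864 and 1861 bp in WT libraries, and at Egr1 it was 1483 bp in Tg replicate 2, against 2343 and 2148 bp in WT libraries. Tg replicate 1 still had 1114 bp of H3K27ac peaks just upstream of the Nr4a1 start and 1748 bp upstream of that of Egr1, so the start lay outside the called edge. H3K4me1 peaks covered the start in 0 of 32 combinations. That is the common state, because 83.1% of those 14731 genes had none in any library. The share was 78.7% of the 7855 genes with H3K4me3 over the start in all 4 libraries. At Nr4a1, Nr4a3, Fos, Fosb, Jun, Junb and Egr1, H3K4me1 peaks lay on both sides of the start, within the window, in every library. At Nr4a2, Tg replicate 1 had none upstream of the start.

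**Figure D1:**
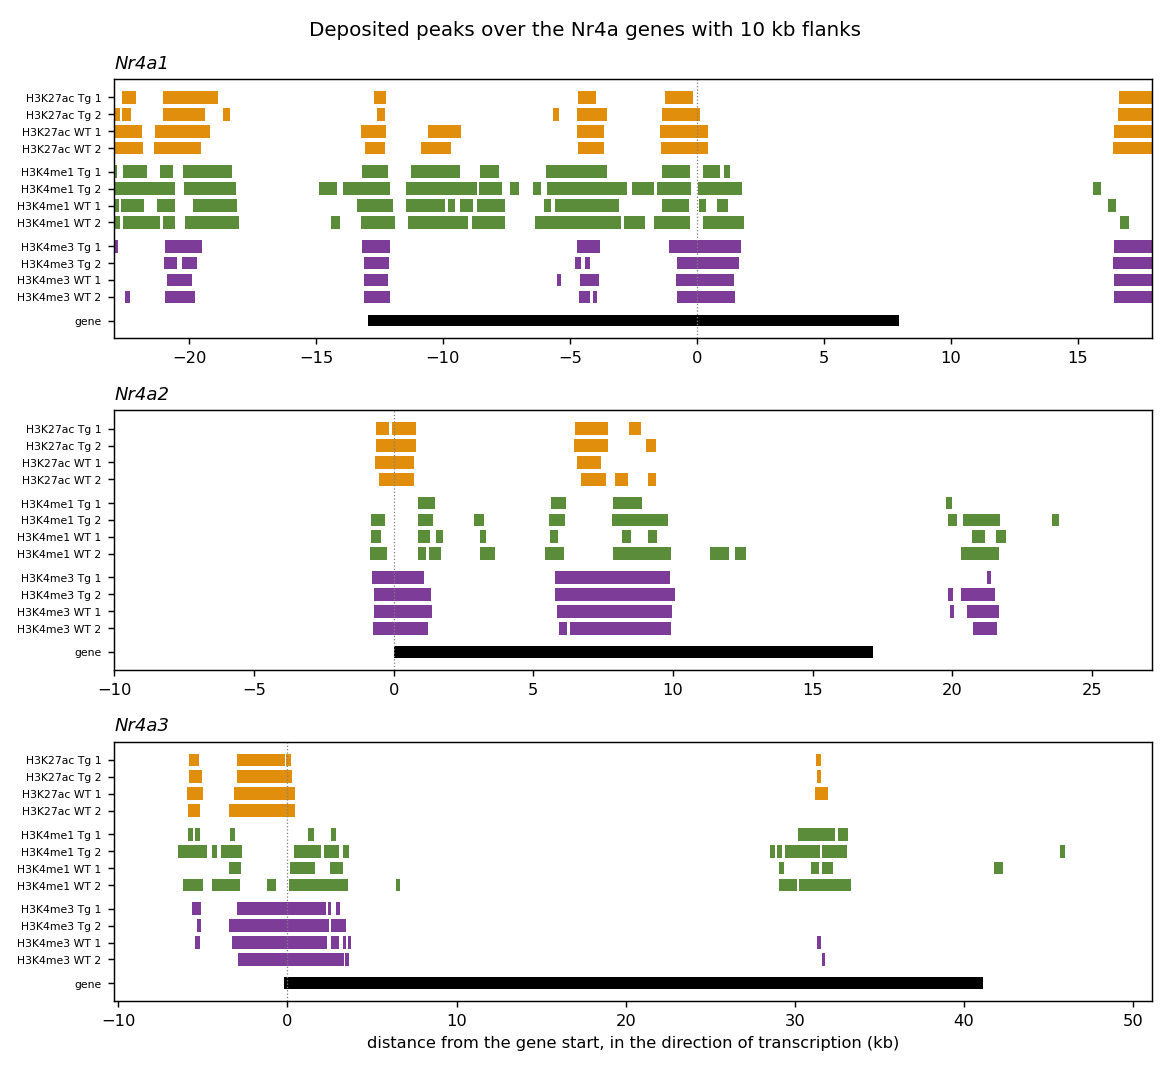
Deposited peaks over Nr4a1, Nr4a2 and Nr4a3 with 10 kb flanks. Each row is 1 library (orange H3K27ac, green H3K4me1, purple H3K4me3, with Tg above WT and H3K4me3 by label), bars are peaks, the black bar is the annotated gene and the x axis is the distance from the gene start in kb. At Nr4a1 the H3K27ac peaks from −10.87 to −9.3 kb appear in both WT rows and in neither Tg row, and H3K4me1 peaks lie there in all 4 rows.

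H3K27ac is taken first by the total length that its peaks cover in each gene's window. No member rose or fell: 0 of 8 passed an adjusted p of 0.05 in limma fitted over 13601 genes, and 0 of 8 had an unadjusted p under 0.05, which 1814 genes (13.3%) had. Over all genes 51 passed (0.375%), 21 higher and 30 lower in Tg. With libraries scaled to equal total length those calls were 0 and 3, and with no normalization 0 and 1. The 51 also depended on single libraries, with 403 calls without Tg replicate 1, 536 without Tg replicate 2, and 0 without either WT library. The 2 Tg lists covered 28.506 and 33.847 Mb in all, against 45.725 and 36.599 Mb in WT, a ratio of the means of 0.757. The fit used lengths after quantile normalization, on a log2 scale with 500 bp added.

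Nr4a1, an orphan nuclear receptor gene induced by antigen and growth factor signals, had 6339 and 7180 bp of H3K27ac peaks in Tg libraries, against 9976 and 9328 bp in WT libraries. Both Tg values lay below both WT values, with means of 6.76 ± 0.595 kb in Tg and 9.65 ± 0.458 kb in WT (SD, n = 2 each) and a ratio of 0.7, below the 0.757 of the whole lists. After normalization the log2 difference was −0.11 ± 0.15 (SE, 95% interval −0.49 to 0.26, limma adjusted p = 0.796). The estimate depended on the window and the scaling, at −0.46 ± 0.16 with 5 kb flanks (limma adjusted p = 0.335), 0.00 with 50 kb flanks and −0.49 ± 0.17 with no normalization (limma adjusted p = 0.325). After normalization, Nr4a1 was the single member with a difference below 0.

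Nr4a2, the family member best known from dopaminergic neurons, had 2906 and 3003 bp in Tg libraries, against 2269 and 2890 bp in WT libraries. Here the deposited lengths were higher in both Tg libraries, by a narrow margin between the nearest of them. The log2 difference was 0.43 ± 0.21 (SE, 95% interval −0.11 to 0.96, limma adjusted p = 0.474). Nr4a3, the third receptor of the family, had 3975 and 4282 bp in Tg libraries, against 5356 and 4609 bp in WT libraries, with no overlap. Its log2 difference after normalization was 0.06 ± 0.15 (SE, limma adjusted p = 0.892).

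Fos, the inducible partner of Jun proteins, had 7327 and 6959 bp in Tg libraries, against 7851 and 7771 bp in WT libraries. Fosb, its close relative, had 4433 and 4739 bp in Tg libraries, against 5717 and 5087 bp in WT libraries. Both were shorter in each Tg library as deposited, and had normalized log2 differences of 0.23 ± 0.17 (Fos, limma adjusted p = 0.616) and 0.10 ± 0.15 (Fosb, limma adjusted p = 0.811). Jun, which can pair with itself as well as with Fos proteins, had a single peak per library of 3723 and 3683 bp in Tg libraries, against 3681 and 3383 bp in WT libraries. These 4 values were close together, and the log2 difference was 0.34 ± 0.17 (SE, 95% interval −0.07 to 0.76, limma adjusted p = 0.456). Junb, which counteracts Jun in growth control, had the longest coverage of the 8 members, 10508 and 9641 bp in Tg libraries against 11659 and 11438 bp in WT libraries. Its window also holds the gene Prdx2 and part of Rnaseh2a, so these lengths include peaks at neighbouring genes. The log2 difference at Junb was 0.21 ± 0.17 (SE, limma adjusted p = 0.665). Egr1, at chr18:34861207-34864956, had 4349 and 4647 bp in Tg libraries, against 5415 and 4644 bp in WT libraries, the one member in which the genotypes overlapped, and a log2 difference of 0.17 ± 0.15 (SE, limma adjusted p = 0.687).

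Counted over the members, deposited H3K27ac length was lower in both Tg libraries than in both WT libraries for 5 genes (Nr4a1, Nr4a3, Fos, Fosb and Junb), and 45.3% of all genes tested did the same. It was higher in both Tg libraries for Nr4a2 and Jun, which 5.58% of all genes did. Both orders were near ties between the closest libraries, at 2906 bp in Tg against 2890 bp in WT (Nr4a2) and 3683 against 3681 bp (Jun). After normalization 5 members (Nr4a2, Fos, Fosb, Jun and Egr1) lay higher in both Tg libraries, against 25.7% of all genes, and Nr4a1 lay lower, against 19.8%. The median log2 difference over the 8 members was 0.19, beside 0.03 over all genes tested. Without normalization the 2 medians were −0.17 and −0.22, and the sign turned at Nr4a3, Fos, Fosb, Junb and Egr1 and was kept at Nr4a1, Nr4a2 and Jun. With libraries scaled to equal total length it turned at 0 of 8. The 95% intervals, which run from −0.49 at Nr4a1 to 0.96 at Nr4a2, do not show that the genotypes are alike.

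**Figure D2:**
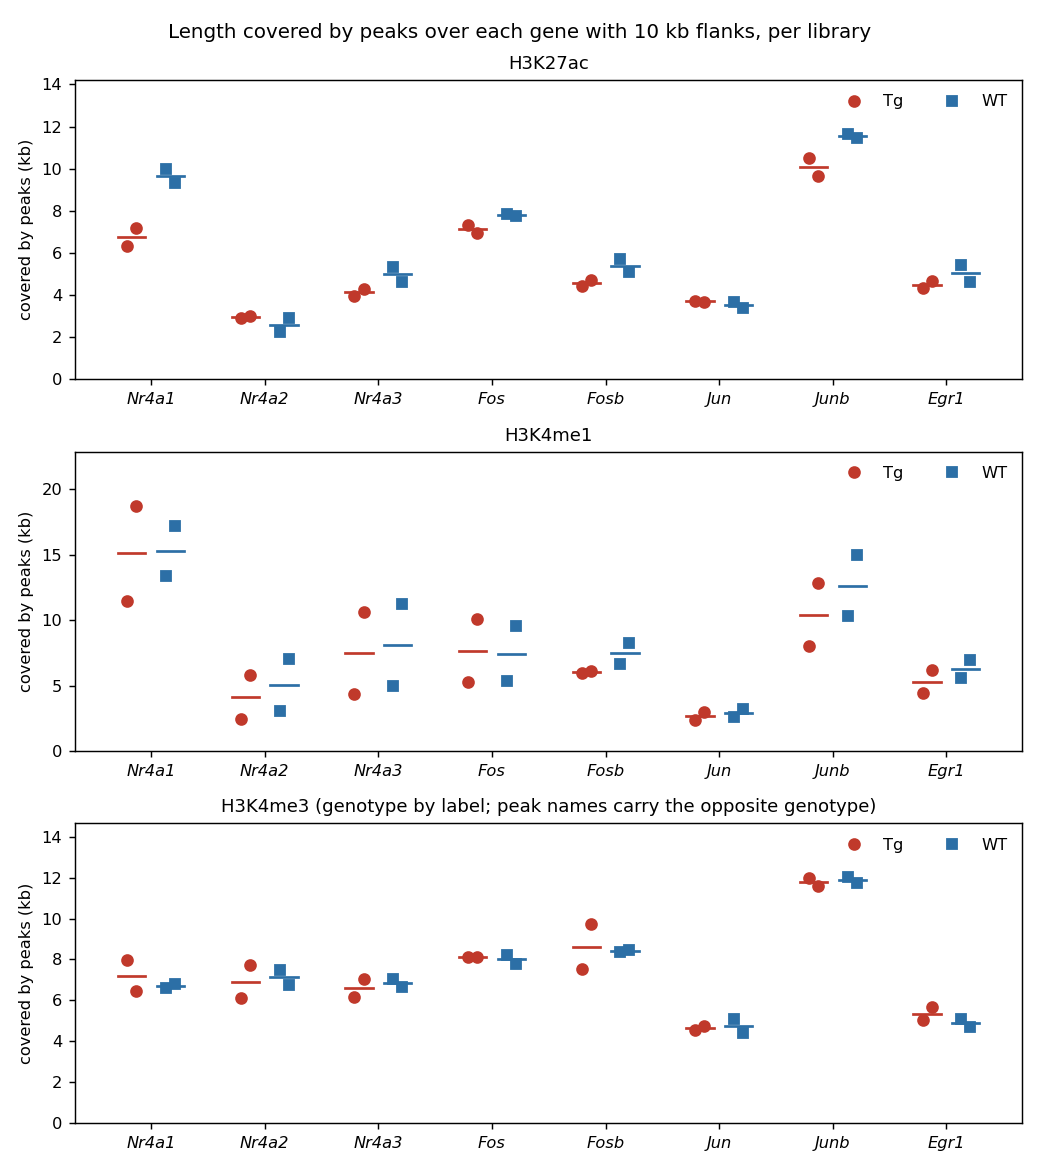
Length covered by peaks over each gene with 10 kb flanks, in kb (y axis), for the 8 genes (x axis) in H3K27ac, H3K4me1 and H3K4me3. Points are single libraries (red circles Tg, blue squares WT), and lines are means of 2 libraries. In H3K27ac the Tg points of Nr4a1 (6339 and 7180 bp) lie below its WT points (9976 and 9328 bp), and in H3K4me1 the points of a gene differ more within a genotype than between genotypes at most genes.

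Markers of other cell types were read beside this result. The 7 granulocyte markers, among them S100a8, Ltf and Camp, summed to 47.3 and 42.5 kb of H3K27ac peaks in Tg libraries, against 94.5 and 99.4 kb in WT libraries. Of these markers 7 of 7 were shorter in both Tg libraries, beside 45.3% of all genes tested. In the same libraries the 8 members summed to 43.6 and 44.1 kb in Tg, against 51.9 and 49.1 kb in WT. The 8 progenitor markers summed to 61.3 and 68.5 kb in Tg, against 97.1 and 83.2 kb in WT. T cell markers ranged from 8.12 to 9.65 kb in Tg and from 8.34 to 8.8 kb in WT, erythroid markers from 2.16 to 6.42 kb in Tg and from 4.05 to 4.29 kb in WT, and monocyte markers from 9.27 to 12.8 kb in Tg and from 13.6 to 16.7 kb in WT. B cell markers ranged from 2.26 to 5.53 kb in Tg and from 4.7 to 7.12 kb in WT, and stroma and endothelium markers from 0.625 to 1.27 kb in Tg and from 2.99 to 3.31 kb in WT. Cd3e, Gata1, Ccr2, Pax5, Cxcl12, Lepr and the progenitor marker Cd34 were at 0 in all 4 H3K27ac lists. In H3K4me3 the granulocyte markers summed to 74.3 and 45.6 kb in the libraries labelled Tg, against 42.2 and 43.7 kb in those labelled WT. Their normalized log2 differences by label were above 0 at 7 of 7, with a median of 0.43. As deposited, 3 were higher in both libraries labelled Tg, beside 11.5% of all genes. The part of cell composition in the members' values was not tested. In bulk chromatin, fewer cells that carry a mark and less of the mark per cell cannot be told apart.

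The windows were then resolved into regions, by merging overlapping peaks of the 4 lists of a mark. The 8 windows held 31 H3K27ac regions, of which 23 (74.2%) were found in all 4 libraries, beside 40.5% of the 48376 regions of the whole mark. Regions found in both Tg libraries and in no WT library numbered 0, beside 1.94% of all regions. One region (3.23%, beside 4.9% of all regions) was found in both WT libraries and in no Tg library. At Nr4a1 the start used here, chr15:101266846, lies inside the annotated span, whose 5′ end is at chr15:101253902. The region lay inside that span, from −10.87 to −9.3 kb of the start used, at chr15:101255973-101257547. The peaks there were 1298 and 1179 bp wide in the WT libraries, with the authors' fold enrichments of 7.63 and 7.17, and stood at the 60.3rd and 50.1st percentile of −log10 q within their lists. H3K4me1 peaks covered 1532 and 1575 bp of this region in Tg libraries, against 1274 and 1575 bp in WT libraries, and no H3K4me3 library had a peak there. Of the 23 regions found in all 4 libraries, 13 (56.5%) had a shorter covered length in both Tg libraries than in both WT libraries, beside 48.4% of all such regions of the mark. Longer coverage in both Tg libraries was found at 2 (8.7%, beside 6.32%).

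Of the 8 other H3K27ac regions in the Nr4a1 window, 6 were found in every library, and short peaks from −18.66 to −18.38 kb and from −5.68 to −5.42 kb were found in Tg replicate 2 alone. At the 5′ end of the annotated gene, from −13.22 to −12.23 kb, peaks covered 477 and 326 bp in Tg libraries, against 1000 and 790 bp in WT libraries. H3K4me3 peaks lay there in every library, with 1125 and 1000 bp by the Tg label and 972 and 1015 bp by the WT label. Whether transcription starts there was not tested. Between −21.37 and −18.87 kb they covered 2145 and 1656 bp in Tg libraries, against 2179 and 1834 bp in WT libraries, and between −4.71 and −3.54 kb 721 and 1178 bp against 1027 and 1010 bp, both with overlap. From 16.41 to 19.32 kb, over the start of the neighbouring autophagy gene Atg101, they covered 1326 and 1553 bp in Tg libraries, against 2871 and 2015 bp in WT libraries. This last region runs past the end of the Nr4a1 window, which counts 1323 and 1373 bp of it in Tg libraries and 1499 and 1543 bp in WT libraries.

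Fos had H3K27ac at 2 regions away from its promoter in all 4 libraries. In the upstream region, from −6.52 to −3.99 kb, peaks covered 1916 and 1697 bp in Tg libraries, against 2374 and 2455 bp in WT libraries. In the downstream region, from 11.36 to 14.25 kb, they covered 1780 and 1727 bp in Tg libraries, against 2888 and 2749 bp in WT libraries. The Fos window ends inside it and counts 1749 and 1727 bp in Tg libraries, against 2020 and 1985 bp in WT libraries. Both regions were shorter in each Tg library, while the region over the start covered 3405 and 3535 bp in Tg libraries, against 3457 and 3331 bp in WT libraries, and overlapped. H3K4me1 and H3K4me3 peaks were present at both distal regions in all 8 libraries of those marks.

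Fosb had 2 upstream regions. From −7.28 to −5.91 kb peaks covered 370 and 908 bp in Tg libraries, against 1368 and 1295 bp in WT libraries, and from −11.52 to −8.56 kb they covered 2503 and 1249 bp in Tg libraries, against 2698 and 2438 bp in WT libraries, with overlap. The Fosb window ends inside this second region and counts 1361 and 845 bp of it in Tg libraries, against 1259 and 996 bp in WT libraries. Downstream of Fosb, from 8.72 to 9.24 kb, they covered 386 and 357 bp in Tg libraries, against 513 and 404 bp in WT libraries. Over the Fosb start the region covered 2316 and 2629 bp in Tg libraries, against 2577 and 2392 bp in WT libraries, with overlap. Egr1 had 1 upstream region, from −7.12 to −4.04 kb, of 2601 and 2789 bp in Tg libraries against 3072 and 2496 bp in WT libraries, which overlapped. Its start region covered 1748 and 1858 bp in Tg libraries, against 2343 and 2148 bp in WT libraries. Junb had a merged region from −4.18 to 4.11 kb, made of 1 to 4 peaks in each library and covered over 7627 and 6699 bp in Tg libraries against 7949 and 7917 bp in WT libraries. A region upstream of Junb, from −8.21 to −5.59 kb, was covered over 2082 and 2139 bp in Tg libraries, against 2619 and 2191 bp in WT libraries. Another, from 8.55 to 10.01 kb, lay over the start of the neighbouring gene Prdx2. It was covered over 799 and 803 bp in Tg libraries, against 1091 and 1330 bp in WT libraries.

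Nr4a3 had an intragenic region far from its start, from 31.18 to 31.99 kb, with 255 and 234 bp in Tg libraries and with 804 and 0 bp in WT libraries, so that the WT libraries themselves disagreed. Nr4a2 had H3K27ac inside its body from 6.47 to 7.68 kb, with 1176 and 1195 bp in Tg libraries against 876 and 866 bp in WT libraries. It sat inside an H3K4me3 block from 5.77 to 10.09 kb that was present in all 4 libraries. Beyond the 10 kb flanks Nr4a2 stood alone, with 0 bp of peaks between 10 and 50 kb from the gene in all 12 lists. In that outer range, H3K27ac coverage was lower in both Tg libraries at Nr4a3, Fos, Fosb, Jun and Egr1, beside 45.5% of all genes with peaks there, and higher in both at 0 members, beside 5.77%. Egr1 had 0.293 and 0.929 kb in Tg libraries against 2.93 and 2.29 kb in WT libraries, and Jun had 2.01 and 1.1 kb in Tg libraries against 5.69 and 3.44 kb in WT libraries.

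**Figure D3:**
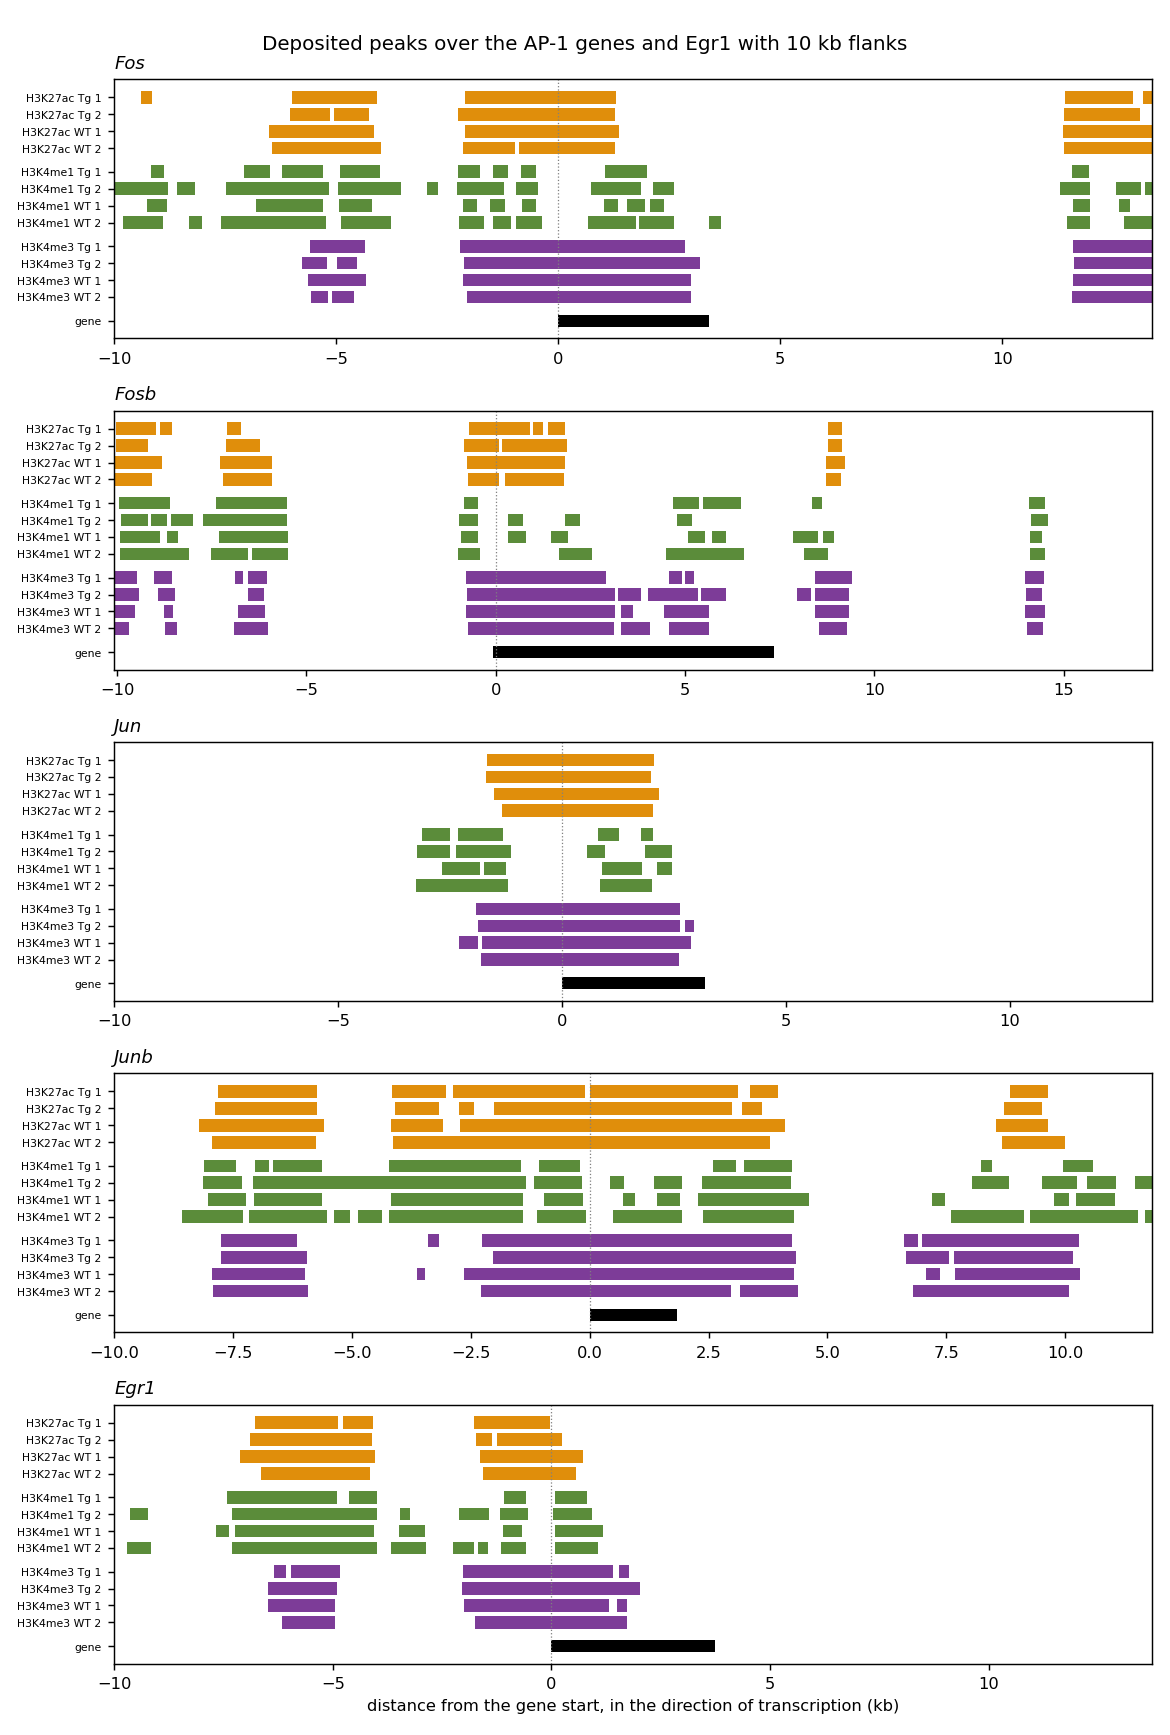
Deposited peaks over Fos, Fosb, Jun, Junb and Egr1 with 10 kb flanks. Each row is 1 library (orange H3K27ac, green H3K4me1, purple H3K4me3, with Tg above WT and H3K4me3 by label), bars are peaks, the black bar is the annotated gene and the x axis is the distance from the gene start in kb. Jun has 1 H3K27ac peak per library, and the distal H3K27ac blocks of Fos near −5 kb are shorter in Tg rows (1916 and 1697 bp) than in WT rows (2374 and 2455 bp).

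The reach of the promoter H3K27ac peak into the gene could be read where a peak covered the start in all 4 libraries, which left 6 members and 4826 genes in all. The edge is that of the single peak over the start, so it stops at the first break between peaks. At Nr4a3 the downstream edge lay 204 and 273 bp from the start in Tg libraries, against 429 and 472 bp in WT libraries. At Junb it lay at 3125 and 2991 bp in Tg libraries, against 4113 and 3788 bp in WT libraries. Past a short break, the Tg libraries had further Junb peaks from 3.371 to 3.962 kb and from 3.205 to 3.632 kb. Counted to the end of those peaks, the genotypes overlapped at Junb. At Nr4a2 the edge lay farther out in Tg libraries, at 785 and 819 bp against 730 and 743 bp in WT libraries. At Fos, Fosb and Jun the genotypes overlapped. Of the 4826 genes, 44.1% had the edge nearer to the start in both Tg libraries and 5.2% had it farther. The upstream edge was nearer in both Tg libraries at Nr4a3 and Junb, beside 43.8% of the 4826 genes, and farther at Fos and Jun, beside 5.08%. At Jun it lay 1672 and 1706 bp from the start in Tg libraries, against 1510 and 1351 bp in WT libraries. Some upstream edges were short breaks between peaks. Past the break, Tg replicate 1 had a peak from −2.997 to −0.15 kb at Nr4a3 and from −2.868 to −0.091 kb at Junb. At Fos, WT replicate 2 had one from −2.142 to −0.986 kb. The upstream order at Junb and Fos rests on these breaks.

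No H3K4me1 difference was called at any member. In limma, 0 of 8 members and 0 of 16130 genes passed (0%), and an unadjusted p under 0.05 was found for 0 members and 1356 genes (8.41%). The libraries of replicate 2 covered more than those of replicate 1 in both genotypes at every member, and in the whole lists (117.008 against 70.702 Mb in Tg, 119.713 against 66.272 Mb in WT). Nr4a1 had 11503 and 18755 bp in Tg libraries, against 13351 and 17167 bp in WT libraries, with a log2 difference of −0.03 ± 0.22 (SE, limma adjusted p = 0.983). Nr4a2 had 2461 and 5838 bp in Tg libraries against 3045 and 7072 bp in WT libraries, and Nr4a3 had 4349 and 10660 bp in Tg libraries against 4996 and 11265 bp in WT libraries. All 3 receptor genes overlapped between genotypes. Deposited length was higher in both Tg libraries at 0 members, beside 2.5% of all genes. Between 10 and 50 kb from the genes, 0 members lay apart in either direction, beside 2.88% of genes higher and 5.07% lower in both Tg libraries.

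The AP-1 genes showed the same overlap in H3K4me1, with 1 exception. Fos had 5246 and 10120 bp in Tg libraries against 5340 and 9539 bp in WT libraries, and Jun had 2383 and 2987 bp in Tg libraries against 2571 and 3194 bp in WT libraries. Fosb, the exception, had 5990 and 6104 bp in Tg libraries against 6654 and 8280 bp in WT libraries, an order that 6.47% of all genes shared, and a log2 difference of −0.24 ± 0.31 (SE, limma adjusted p = 0.862). Junb had 8020 and 12834 bp in Tg libraries against 10335 and 14957 bp in WT libraries. Its normalized values were lower in both Tg libraries, as were those of 20.1% of all genes, with a log2 difference of −0.26 ± 0.20 (SE, limma adjusted p = 0.747). Egr1 had 4413 and 6192 bp in Tg libraries against 5571 and 6939 bp in WT libraries. The median difference over the members was −0.13, beside 0 over all genes. The 95% intervals reached from −1.03 at Fosb to 0.78 at Jun, so the absence of calls in this mark does not show that the genotypes are alike.

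The member windows held 66 H3K4me1 regions, of which 36 (54.5%, beside 33% of all 139885 regions) were found in all 4 libraries. One region (1.52%, beside 1.97% of all regions) was found in both Tg libraries and in no WT library, and 0 (beside 3.25%) in both WT libraries alone. The 1 region lay beyond the end of Nr4a2, at chr2:57103843-57104236, from 19.77 to 20.16 kb of its start. Its peaks were 246 and 324 bp wide, at the 5.7th and 48.4th percentile of −log10 q in their lists, and the weaker is near the bottom of its list.

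No H3K4me3 difference was called at any member. In limma, 0 of 8 members and 0 of 16132 genes passed (0%), with an unadjusted p under 0.05 for 0 members and 736 genes (4.56%). All 8 members overlapped between the labelled genotypes in deposited length, whereas 11.5% of all genes were higher and 18.2% lower in both libraries labelled Tg. Fos had 8108 and 8104 bp in the libraries labelled Tg, against 8240 and 7772 bp in those labelled WT, with a 95% interval of the log2 difference from −0.21 to 0.2. Junb had 11987 and 11614 bp in the libraries labelled Tg, against 12019 and 11742 bp in those labelled WT (log2 difference −0.05 ± 0.08, SE, limma adjusted p = 0.957). Part of this was a block from 6.6 to 10.32 kb, over the start of Prdx2. It covered 3619 and 3432 bp in the libraries labelled Tg, against 2943 and 3291 bp in those labelled WT. Jun had 4555 and 4727 bp in the libraries labelled Tg, against 5106 and 4407 bp in those labelled WT.

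Nr4a1 had 7964 and 6464 bp of H3K4me3 in the libraries labelled Tg, against 6608 and 6802 bp in those labelled WT, where the first value alone stood apart. Nr4a2 had 6122 and 7710 bp in the libraries labelled Tg, against 7500 and 6752 bp in those labelled WT, and Nr4a3 had 6166 and 7061 bp against 7044 and 6666 bp. Fosb had 7527 and 9722 bp in the libraries labelled Tg, against 8360 and 8439 bp in those labelled WT, the widest gap between 2 libraries of a label among the members. Egr1 had 5055 and 5652 bp in the libraries labelled Tg, against 5069 and 4709 bp in those labelled WT (log2 difference 0.12 ± 0.10, SE, limma adjusted p = 0.932). After normalization Egr1 lay higher in both libraries labelled Tg, as did 17.4% of all genes, and 0 members lay lower in both, beside 16.9%. The downstream edge of the start peak lay farther out in both libraries labelled Tg at Nr4a1 (1747 and 1646 bp, against 1451 and 1520 bp in those labelled WT). This held for 14.9% of the 7855 genes with a start peak in all 4 libraries. The edge lay nearer at 0 members, beside 19%. The upstream edge lay farther out at Jun and Egr1, beside 18.4%, and nearer at Junb, beside 15.9%. At Jun, replicate 1 labelled WT had a further peak from −2.313 to −1.87 kb, so the order there rests on a short break between peaks. Between 10 and 50 kb from the gene, Nr4a3 and Jun were higher in both libraries labelled Tg, beside 11.2% of all genes, and Fosb was lower, beside 16.5%. Nr4a3 had 3.01 and 2.66 kb there in the libraries labelled Tg, against 2.08 and 2.06 kb in those labelled WT. Of 35 H3K4me3 regions, 25 (71.4%, beside 54.7% of all regions) were found in all 4 libraries, and 0 were found in both libraries of 1 label alone (beside 1.47% for the Tg label and 2.24% for the WT label).

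**Figure D4:**
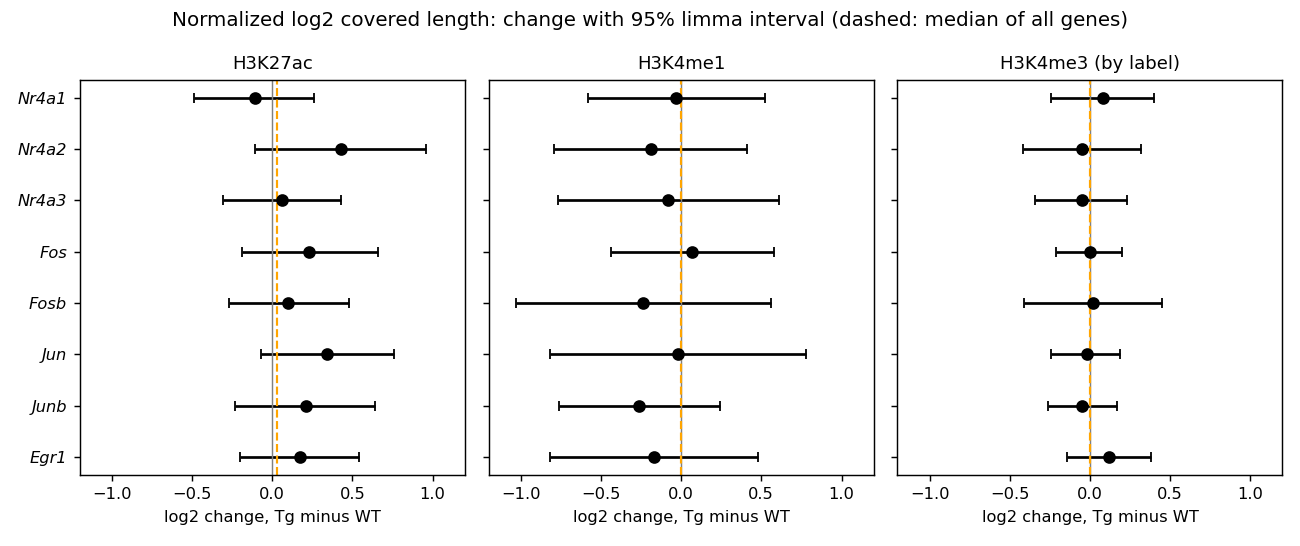
Log2 difference, Tg minus WT, in normalized covered length for the 8 genes in each mark, with 95% intervals from limma (H3K4me3 by label). Points are estimates, rows are genes, and the dashed line is the median of all genes tested (0.03 in H3K27ac). Every interval crosses 0, and the H3K27ac estimates run from −0.11 at Nr4a1 to 0.43 at Nr4a2.

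Genes of the same response were read in the same fits. Among 38 other immediate early genes, 36 were tested in H3K27ac and 38 in each of the other marks, and 0 rose or fell in any mark, with medians of 0.09 in H3K27ac, 0.07 in H3K4me1 and 0.02 in H3K4me3. In H3K27ac the 3 with the largest differences were Dusp5, Ier5l and Egr3. Dusp5, a phosphatase that switches off ERK, had 389 and 1127 bp in Tg libraries, against 5018 and 1504 bp in WT libraries (log2 difference −1.22 ± 0.42, SE, limma adjusted p = 0.309). Egr3, a relative of Egr1, had 2170 and 1221 bp in Tg libraries, against 3570 and 2959 bp in WT libraries (limma adjusted p = 0.511). Ier5l, a relative of the immediate early gene Ier5, had 420 and 690 bp in Tg libraries, against 0 and 290 bp in WT libraries (limma adjusted p = 0.212). In H3K4me1 the largest log2 differences were 1.07 at Egr4, −0.90 at Klf4 and 0.65 at Fosl2, and in H3K4me3 they were 0.26 at Klf6, 0.24 at Sik1 and −0.12 at Ier5l.

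Regulators and partners of the 8 genes numbered 26, of which 25 were tested in H3K27ac and 26 in each of the other marks, and 0 rose or fell, with medians of 0.02, 0.03 and 0.02 in the order above. Elk3, a partner of SRF at serum response elements, had 3086 and 4464 bp of H3K27ac in Tg libraries, against 2385 and 2118 bp in WT libraries. Its log2 difference was 0.89 ± 0.16 (SE, limma adjusted p = 0.123), and both Tg values lay above both WT values. Srf itself had 4180 and 4073 bp in Tg libraries, against 4050 and 3919 bp in WT libraries (limma adjusted p = 0.491). Batf3, a leucine zipper protein that pairs with Jun proteins, had 0 and 1546 bp in Tg libraries, against 1910 and 1369 bp in WT libraries (limma adjusted p = 0.571). In H3K4me1 the largest log2 differences were 1.02 at Elk1, −0.78 at Crem and 0.60 at Mrtfb, and those in H3K4me3 included 0.37 at Elk1 and −0.20 at Nab1. Elk1, another partner of SRF, had 3763 and 3274 bp of H3K4me3 in the libraries labelled Tg, against 2658 and 2606 bp in those labelled WT (log2 difference 0.37 ± 0.09, SE, limma adjusted p = 0.923).

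The genes whose covered length varied most like the mean of the 8 members were sought over the 12 libraries, on normalized values with the mean of each mark taken out, among 13178 genes tested in all 3 marks. They were Gars (Pearson r = 0.964), Rgs16 (0.935), Arhgef25 (0.934), Tpi1 (0.931) and Eprs (0.929), and 34 genes reached 0.9. The 12 points share libraries and include both genotypes of each mark, and the values are a description.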

How the data were processed

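The data are 12 ChIP-seq peak lists in narrowPeak format, 1 for each library. The submitters' processing notes name MACS2, Bowtie2, SAMtools, deepTools, Trim Galore and FastQC, and the build mm10. Versions, settings and any control library are not given in the sources used here. For each peak the authors deposited positions, a score, a ratio (fold enrichment) and the −log10 of the p-value and of the q-value. These depend on depth, which is unknown, so they served to rank or filter peaks within a list.

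Gene positions were those of RefSeq on GRCm38.p6, and gene starts and strands from its promoter table where it holds the gene. Egr1 is not in that table, and its lower annotated end was taken as the start. Covered length per gene with 10 kb flanks was put on a log2 scale after 500 bp were added, and quantile normalized. Genes needed a peak in at least 2 of the 4 libraries of a mark. Each mark was fitted alone in limma 3.58.1 under R 4.3.3 with genotype as the term, and p-values were adjusted by Benjamini-Hochberg over all genes tested, with a threshold of 0.05. The procedure was tested on simulated data, in which most log2 changes of 1 were missed in each of the 3 marks. In H3K4me1 most log2 changes of 2 were missed as well. Python 3.11.15 was used for the rest. Distances are from the gene start in the direction of transcription, and coordinates are 1-based.

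Members, gene lists and marker lists were chosen with earlier results of these data known. The named genes are the 8 members and, from each of the other 2 lists and for each mark, the genes past the threshold or, where none passed, the 3 with the largest absolute log2 difference, of which 1 is not reported here. The alternatives were other scalings, flanks, added lengths, filters, peak thresholds and measures, a replicate block, and each library left out in turn.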

Additional observations from a re-analysis of the deposited data

How the results depend on the processing

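No member passed the threshold under any alternative in H3K27ac or H3K4me1. The lowest adjusted p over the 14 and 13 alternatives was 0.234 and 0.485. In H3K4me3, 1 member passed under 1 of 13 alternatives: by number of peaks, Fosb (9 and 10 in the libraries labelled Tg, 8 and 8 in those labelled WT) had an adjusted p of 0.0349, and 681 genes passed. Over the 8 members and these alternatives, the sign of the log2 difference turned 11 times in H3K27ac, 18 in H3K4me1 and 22 in H3K4me3.

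Over all genes, the 51 H3K27ac calls became 1 with no normalization, 3 with equal total length, 9 with 100 bp added, 9 with no filter, 11 with 5 kb flanks, 17 with 50 kb flanks, 18 with peaks of −log10 q of at least 5, and 312 by number of peaks. They ranged from 0 to 536 with 1 library left out, and were 0 without WT replicate 1 (924 genes with an unadjusted p under 0.05) and 0 without WT replicate 2 (1144 genes). In H3K4me1 the 0 calls became 1 with no normalization, and in H3K4me3 the 0 calls became 8 with no filter. The lone library left in a genotype was then taken to vary like the other genotype's.

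Same-numbered libraries correlated at −0.233 (H3K27ac), 0.261 (H3K4me1) and −0.0894 (H3K4me3) in their deviations from the genotype means, and the labels give them no more than a shared number. In H3K4me3 the number also went with peaks over Y chromosome genes, 4 of 4 in replicate 1 and 0 of 4 in replicate 2. A block by number therefore also separates the libraries of that mark by Y peaks. With the replicate number as a block, 36, 0 and 0 genes passed. A crossed block, chosen after seeing the data, gave 75 in H3K27ac.

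With at least 50% of a region required to be covered, regions found in both WT libraries alone became 2 in H3K27ac (both at Nr4a1) and 2 in H3K4me1, and regions of both libraries labelled Tg alone became 1 in H3K4me3. With peaks of −log10 q of at least 5, H3K4me1 had 0 regions of Tg alone and 1 of WT alone. The causes of these changes were not tested.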
